A study of Mus musculus with 6 samples.

Results

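Kinesins are motor proteins that use ATP to walk along microtubules or to take their ends apart. A branch of the superfamily works in dividing cells, where it builds the spindle, moves chromosomes and organises the midzone and midbody at which a cell is cut into daughters. The other branches mostly carry vesicles, mitochondria, endosomes or ciliary cargo, and some have lost motility or control microtubule growth. The heart is a tissue in which the proportion of dividing cells drops around birth, and cardiomyocytes often stop before the cut and keep more than a single nucleus.

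Every gene was taken whose symbol is Kif, a number and at most a letter a, b or c. This rule found 37 genes among the 24421 in the table, of which 11 were set apart by name as mitotic kinesins and 26 formed the rest. The rest is not uniformly a transport group: Kif2a shortens microtubules, also at spindle poles, Kif24 acts at the centriole, and Kif26a and Kif26b lack motor ATPase activity. RNA was measured in 6 libraries of whole hearts from C57/Bl6 mouse embryos at embryonic day 18.5, namely 3 with the genotype label Gas2l3 -/- and 3 labelled wildtype, and no other allele or agent is named. Gas2l3 encodes a protein that links actin and microtubules and acts in cytokinesis, and the series asks how its deletion affects heart muscle cells in development. The labels do not say whether each library came from its own embryo or litter, so p-values measure only the spread between these libraries. FPKM are fragments scaled by transcript length and depth, here scaled between libraries by the authors. Levels set beside each other across genes, as in sums and rankings, also rest on the length taken for each gene.

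Gas2l3 itself, at chr10:89408823-89443967, minus strand in GRCm38, had 4.03, 2.99 and 3.06 FPKM in the knockout-labelled hearts, against 10.3, 4.12 and 2.48 FPKM in the wildtype-labelled hearts. The groups overlapped, because the wildtype-labelled replicate 3 had the lowest value of all. The log2 difference was −0.47 (SE 0.44, limma adjusted p = 0.966), and it was 0.047 without the wildtype-labelled replicate 1. Which part of the gene was deleted is not given in the sources used here, so reads over the whole gene may come from a remaining part of the transcript. The labels are therefore used as labels throughout. Recovered depth was 5514800 to 6483168 reads in the knockout-labelled libraries and 3414257 to 7732674 reads in the wildtype-labelled libraries, the lowest being wildtype-labelled replicate 1. Wildtype-labelled replicate 3 stood apart in base composition: the correlation over all tested genes between its deviation from the mean of the libraries and the GC content of a gene was 0.703, against −0.481 to −0.0709 in the other 5 libraries. Its mean correlation with the other libraries was 0.899, against 0.935 to 0.957 for the rest.

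On the log2(FPKM + 0.5) scale, each of the 11 mitotic kinesins averaged less in knockout-labelled than in wildtype-labelled hearts, with differences of −0.82 to −0.28 and a median of −0.57. Over the 12121 genes tested, 51.0% had lower means and the median difference was −0.0089. No kinesin passed the test, and neither did any other gene: 0% of the tested genes were called at an adjusted p under 0.05 in limma, and 394 genes, or 3.25%, had an unadjusted p under 0.05. The voom fit on recovered reads also called 0 genes, with 376 at an unadjusted p under 0.05. Kif20b and Kif22 were the 2 mitotic kinesins at an unadjusted p under 0.05, both lower, where 1.35% of tested genes were. In 5 of the 11, namely Kif22, Kif2c, Kif4, Kif18b and Kif20b, every knockout-labelled library lay below every wildtype-labelled library, while 4.74% of tested genes had groups that did not overlap in that direction. In whole hearts, fewer dividing cells and less RNA per dividing cell cannot be told apart.

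Of the other 26 kinesins, 15 reached the level needed for testing, at least 1 FPKM in 3 or more libraries, and their median difference was 0.039. Lower means were found for 6 and higher means for 9, where 49.0% of tested genes had higher means. The groups overlapped in all 15, where they did not overlap, higher, in 5.02% of tested genes, and none had an unadjusted p under 0.05, where 1.90% of tested genes were higher at that level. The difference was smaller than its own standard error in 14 of these 15 genes, against 1 of the 11 mitotic kinesins. Scaling every library to a common FPKM total moved the median of all tested genes to 0.15, the mitotic median to −0.40 and the median of the rest to 0.20, so that relative to all genes the mitotic median was −0.55 under that scaling and −0.56 under the deposited scaling. All 11 mitotic kinesins kept lower means under the common total, but the groups did not overlap in 1 of them, where 3.20% of tested genes had such groups, lower, and of the rest 1 of 15 then had a lower mean.

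**Figure D1:**
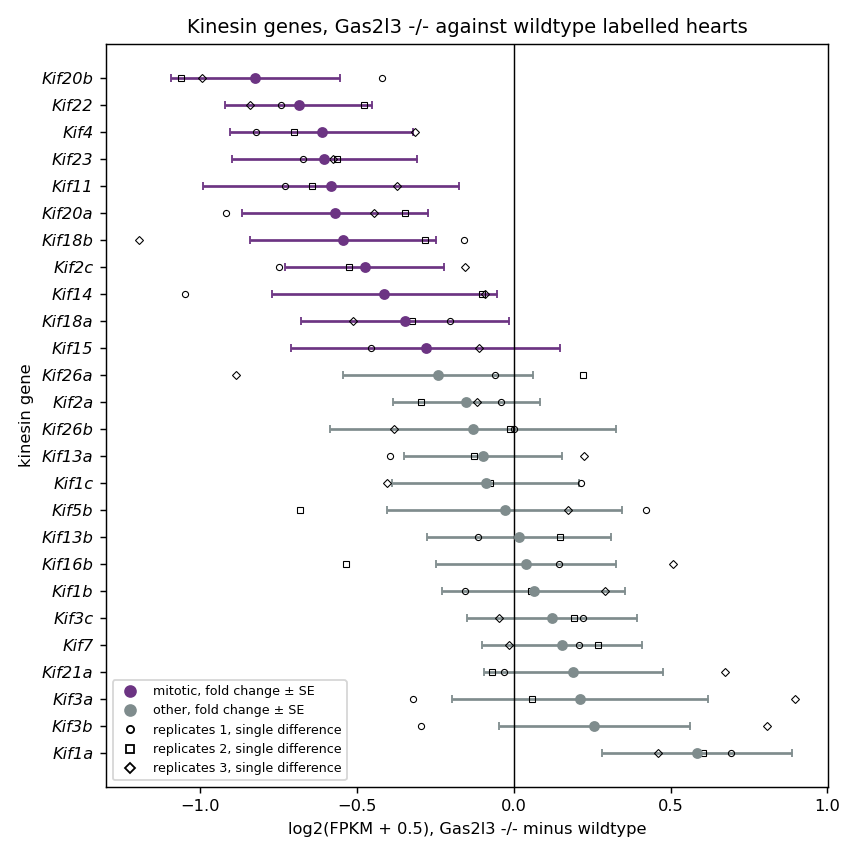
Difference in log2(FPKM + 0.5) between Gas2l3 -/- and wildtype labelled hearts for the 26 tested kinesins, as limma fold change with its SE (filled points) and as the difference within each same-numbered pair of libraries (open symbols). The 11 mitotic kinesins lie between −0.82 and −0.28, with all single differences below 0, and the other 15 lie on both sides of 0.

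Promoters were read for what members share beyond their names. RefSeq windows of GRCm38.p6, from 250 bases before to 50 bases after each start site, were matched by symbol for 31 of the 37 kinesins, 10 mitotic genes with 10 windows and 21 others with 25 windows. Searched on both strands were the letters of the cell cycle genes homology region, CHR (TTTGAA or TTTAAA), the CCAAT box (CCAAT) and an E2F site (TTTGGCGC or TTTCGCGC), elements known from promoters of genes that are switched on for division. A CHR was found in 9 of 10 mitotic windows, or 90.0%, in 3 of 25 other windows and in 27.6% of all 32851 windows. Windows follow RefSeq start sites, and those of Kif2c, Kif14 and Kif4 lie wholly inside the GENCODE gene, Kif4 close to its 5′ end. The Kif2c window, chr4:117178723-117179022, lies in a minus-strand gene at chr4:117159639-117182639. The Kif14 window, chr1:136467598-136467897, lies in a plus-strand gene at chr1:136466343-136531511. The 90.0% thus includes windows away from the annotated 5′ end. The CCAAT box was present in 60.0% of mitotic windows, 36.0% of other kinesin windows and 37.4% of all windows. A CHR and a CCAAT box stood in the same window in 6 of 10 mitotic windows, 2 of 25 other kinesin windows and 10.7% of all windows. The E2F letters were in the windows of Kif15 and Kif18a, in 0 of the 25 others and in 0.813% of all windows. No matches of different motifs overlapped in the kinesin windows. Kif18a was the matched mitotic member with no CHR, and the other kinesins with one were Kif1a, Kif26b and Kif27. The Kif1a match is in a window at chr1:93082431-93082730, inside the minus-strand gene at chr1:93015464-93101951. The Kif1a window at the 5′ end, chr1:93101825-93102124, has none of the motifs. Within the kinesin-4 family, Kif4 and Kif27 had CHR and CCAAT letters, while Kif21a and Kif7 had none of the motifs. The Kif27 window, chr13:58354898-58355197, also lies inside its minus-strand gene, chr13:58287502-58359122. Matches of such short letters describe the sequence and are not binding sites. Shown are the windows of Kif22, Kif20b and Kif4, mitotic members with groups that did not overlap, and that of Kif21a, which belongs to the same kinesin-4 family as Kif4, has none of the motifs and had a log2 difference of 0.19 (SE 0.29). Sequences run 5′ to 3′ on the strand of the gene and capitals mark the motifs, which read TTCAAA for CHR and ATTGG for the CCAAT box where the match is on the other strand.
Kif22, chr7:127042371-127042670, minus strand: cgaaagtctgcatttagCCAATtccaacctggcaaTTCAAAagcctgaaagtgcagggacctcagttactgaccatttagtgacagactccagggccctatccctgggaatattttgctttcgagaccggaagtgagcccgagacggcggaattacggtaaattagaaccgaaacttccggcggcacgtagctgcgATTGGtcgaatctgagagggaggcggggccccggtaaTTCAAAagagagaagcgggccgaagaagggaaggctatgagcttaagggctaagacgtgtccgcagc
Kif20b, chr19:34922108-34922407, plus strand: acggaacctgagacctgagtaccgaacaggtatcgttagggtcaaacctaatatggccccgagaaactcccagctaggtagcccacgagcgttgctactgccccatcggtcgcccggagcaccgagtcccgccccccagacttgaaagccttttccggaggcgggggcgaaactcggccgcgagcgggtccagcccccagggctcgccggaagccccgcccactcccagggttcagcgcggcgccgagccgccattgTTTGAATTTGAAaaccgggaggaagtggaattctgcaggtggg
Kif4, chrX:100625815-100626114, plus strand: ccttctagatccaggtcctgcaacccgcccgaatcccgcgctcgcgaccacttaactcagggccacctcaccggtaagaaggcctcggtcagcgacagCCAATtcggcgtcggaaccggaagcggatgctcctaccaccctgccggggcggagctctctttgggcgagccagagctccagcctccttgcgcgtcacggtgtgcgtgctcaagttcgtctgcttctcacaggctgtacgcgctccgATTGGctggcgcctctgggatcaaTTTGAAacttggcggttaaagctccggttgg
Kif21a, chr15:91049902-91050201, minus strand: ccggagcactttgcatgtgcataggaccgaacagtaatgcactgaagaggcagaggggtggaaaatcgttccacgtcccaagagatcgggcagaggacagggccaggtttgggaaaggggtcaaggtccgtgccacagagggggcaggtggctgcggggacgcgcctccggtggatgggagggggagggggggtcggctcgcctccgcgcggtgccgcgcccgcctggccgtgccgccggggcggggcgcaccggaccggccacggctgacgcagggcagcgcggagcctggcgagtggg
In the GENCODE annotation of GRCm38, the genes lie at chr7:127027729-127042471, minus strand for Kif22, chr19:34922361-34975745, plus strand for Kif20b, chrX:100625737-100727214, plus strand for Kif4 and chr15:90933276-91049948, minus strand for Kif21a, all protein-coding. Counted from the first transcribed base of the RefSeq start as 1, the CHR matches of Kif22 began at −215 and −17 and its CCAAT boxes at −233 and −54. Kif20b had its CHR letters back to back, at 8 and 14, and Kif4 had a CHR at 20 and CCAAT boxes at −152 and −5.

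**Figure D2:**
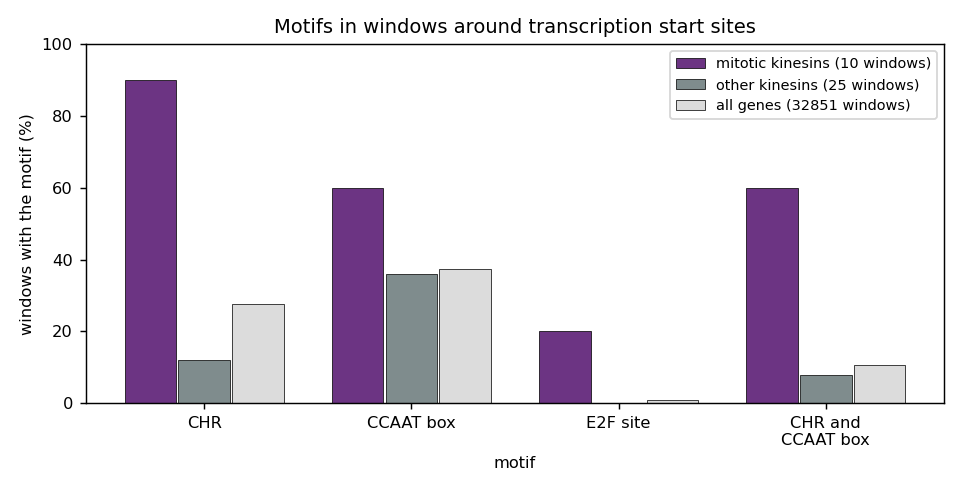
Percent of RefSeq promoter windows that hold each motif, for the 10 windows of mitotic kinesins, the 25 windows of other kinesins and all 32851 windows. CHR letters are in 9 of the 10 mitotic, 3 of the 25 other kinesin and 27.6% of all windows. Windows follow RefSeq starts, and some, such as that of Kif2c, lie inside the GENCODE gene.

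Chromosome movement and spindle length come first among the mitotic members. Kif22, which binds DNA and pushes chromosome arms away from the spindle poles, had 16.5, 17.7 and 17.5 FPKM in the knockout-labelled hearts, against 28.00, 24.8 and 31.7 FPKM in the wildtype-labelled hearts. The knockout-labelled values lay close together and each was below the lowest wildtype-labelled value. It averaged 17.3 ± 0.617 FPKM in the knockout-labelled hearts and 28.2 ± 3.48 FPKM in the wildtype-labelled hearts (SD, n = 3 each), a log2 difference of −0.69 (SE 0.23) with an unadjusted limma p of 0.018 and an adjusted p of 0.966, the adjusted p of all 11 mitotic kinesins. These values rest on 220, 196 and 249 recovered reads in the knockout-labelled libraries, against 216, 388 and 398 in the wildtype-labelled libraries. Kif2c takes apart microtubule ends at kinetochores and corrects wrong attachments, and it had 9.47, 7.86 and 10.3 FPKM in the knockout-labelled hearts, against 16.2, 11.5 and 11.5 FPKM in the wildtype-labelled hearts. The groups did not overlap, with knockout-labelled replicate 3 nearest to the wildtype-labelled libraries, and the log2 difference was −0.47 (SE 0.25). Kif18a, which dampens the swings of chromosomes at the spindle equator, was the lowest mitotic kinesin, with 1.79, 0.994 and 0.775 FPKM in the knockout-labelled hearts, against 2.14, 1.37 and 1.32 FPKM in the wildtype-labelled hearts. Its groups overlapped, its read counts were 18 to 39 per library, and its log2 difference of −0.35 (SE 0.33) was about the size of the error. It was −0.17 without knockout-labelled replicate 3, −0.17 without wildtype-labelled replicate 1 and −0.59 without knockout-labelled replicate 1. Kif18b shortens astral microtubules, and it had 5.11, 4.85 and 4.65 FPKM in the knockout-labelled hearts, against 5.76, 5.999 and 11.3 FPKM in the wildtype-labelled hearts. The knockout-labelled libraries were tightly grouped below the wildtype-labelled ones, and the difference of −0.54 (SE 0.30) leaned on wildtype-labelled replicate 3: it was −0.25 without that library.

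Kif11 and Kif15 keep the spindle bipolar. Kif11, the motor that slides antiparallel microtubules apart and so separates the spindle poles, had 16.5, 7.79 and 8.84 FPKM in the knockout-labelled hearts, against 27.6, 12.5 and 11.6 FPKM in the wildtype-labelled hearts. Replicate 1 was the highest library of each group, and the groups overlapped. Its mean was 11.04 ± 4.75 FPKM in the knockout-labelled hearts and 17.2 ± 9.03 FPKM in the wildtype-labelled hearts, with a log2 difference of −0.58 (SE 0.41) that came to −0.19 without wildtype-labelled replicate 1. Kif15, which helps to hold the spindle bipolar beside Kif11, had 4.77, 1.85 and 2.68 FPKM in the knockout-labelled hearts, against 6.72, 2.35 and 2.94 FPKM in the wildtype-labelled hearts. Replicate 1 was again the highest library of each group, its groups overlapped, and its difference of −0.28 (SE 0.43) was the smallest among the mitotic kinesins and the one that turned to the other sign, 0.12, without wildtype-labelled replicate 1.

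Members of the midzone and midbody, where cytokinesis ends, made up the remaining 5. Kif20b, a motor of the midbody with a part in abscission, had 1.92, 1.14 and 1.25 FPKM in the knockout-labelled hearts, against 2.74, 2.91 and 2.99 FPKM in the wildtype-labelled hearts. The wildtype-labelled libraries agreed closely and all lay above the knockout-labelled ones. Its log2 difference of −0.82 (SE 0.27), unadjusted limma p 0.0146, was the largest among the 26 tested kinesins, on 69, 34 and 48 recovered reads in the knockout-labelled libraries, against 57, 123 and 101 in the wildtype-labelled libraries. Kif23, the motor subunit of centralspindlin beside Racgap1, had 12.6, 8.05 and 8.78 FPKM in the knockout-labelled hearts, against 20.4, 12.1 and 13.3 FPKM in the wildtype-labelled hearts. Knockout-labelled replicate 1 was above wildtype-labelled replicate 2, so the groups overlapped, and the log2 difference was −0.60 (SE 0.29). Kif20a carries the chromosomal passenger complex to the central spindle, and it had 14.2, 11.05 and 12.4 FPKM in the knockout-labelled hearts, against 27.4, 14.2 and 17.05 FPKM in the wildtype-labelled hearts. The groups touched at 14.2 FPKM, where knockout-labelled replicate 1 equalled wildtype-labelled replicate 2 to 3 digits, and the log2 difference was −0.57 (SE 0.30). Kif4, which works on chromosome arms and, with Prc1, sets the length of the central spindle, had 8.99, 6.16 and 7.18 FPKM in the knockout-labelled hearts, against 16.3, 10.3 and 9.05 FPKM in the wildtype-labelled hearts. The groups did not overlap, and the log2 difference was −0.61 (SE 0.29). Kif14, which binds citron kinase at the midbody, had 1.52, 1.29 and 1.32 FPKM in the knockout-labelled hearts, against 3.68, 1.42 and 1.44 FPKM in the wildtype-labelled hearts. Only wildtype-labelled replicate 1 was set off from the other 5 libraries, and the log2 difference of −0.41 (SE 0.36) came to −0.041 without it. Exons of Kif20a overlap those of Cdc23 on the other strand by 1271 bases and exons of Kif4 overlap those of Pdzd11 by 832 bases. Whether strand was used in counting is not given in the sources used here, so reads of these partners cannot be told apart.

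**Figure D3:**
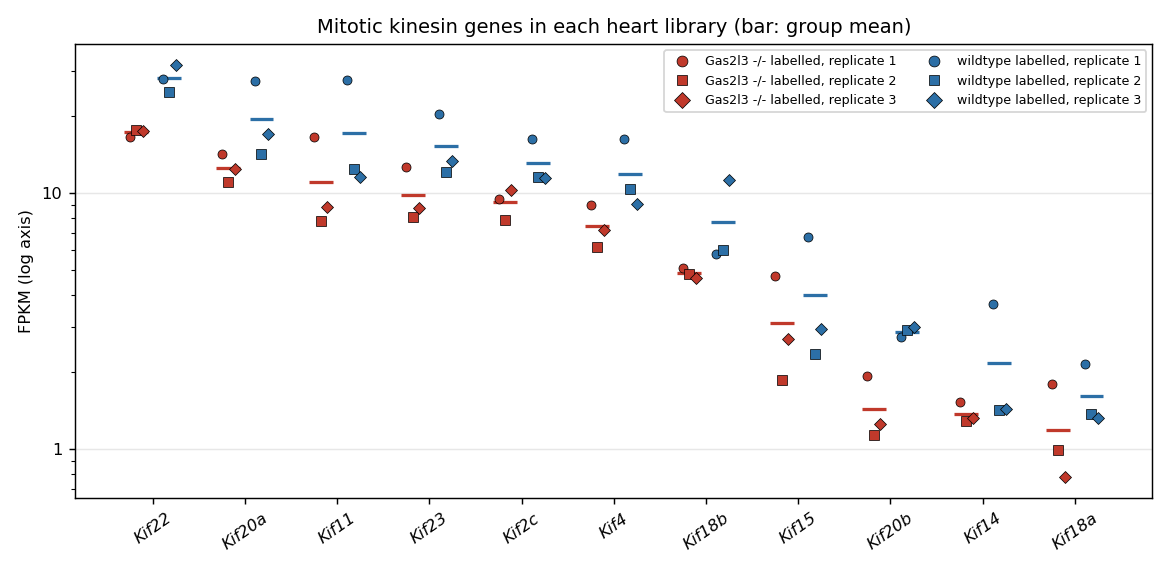
FPKM on a log axis of the 11 mitotic kinesins in each of the 6 libraries, with symbols for replicate numbers and bars for group means. Wildtype-labelled replicate 1 holds the highest value for 8 genes and wildtype-labelled replicate 3 for the other 3, and knockout-labelled replicate 2 holds the lowest value for 8.

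The highest mitotic values sat in few libraries. Wildtype-labelled replicate 1 was the highest library for 8 of the 11 mitotic kinesins and wildtype-labelled replicate 3 for Kif18b, Kif20b and Kif22. Knockout-labelled replicate 2 was the lowest for 8, knockout-labelled replicate 3 for Kif18a and Kif18b, and knockout-labelled replicate 1 for Kif22. Without wildtype-labelled replicate 1, the shallowest library, the mitotic median was −0.32 and 10 of the 11 still had lower means. Kif20b stood at −0.85, Kif18b at −0.71 and Kif22 at −0.69 in that fit, while Kif20a, Kif2c, Kif4 and Kif23 lay between −0.38 and −0.31. Nearer to 0 were Kif11 at −0.19, Kif18a at −0.17 and Kif14 at −0.041, and Kif15 was at 0.12. Libraries of the same number deviated together over all tested genes, with correlations of 0.472, 0.443 and 0.186 for the 3 numbers, against −0.396 to 0.0716 for libraries of different numbers. Deviations were taken from the mean of each group and cancel out within it. Positive values for same-numbered libraries therefore push those of different numbers down, so that contrast is partly built in. Taken by number, all 11 mitotic kinesins were lower in the knockout-labelled library of each of the 3 pairs, where 13.8% of tested genes were. With the replicate number as a block, 6 of the 11 mitotic kinesins had an unadjusted limma p under 0.05, all lower, namely Kif20b, Kif22, Kif23, Kif4, Kif11 and Kif20a, where 2.27% of tested genes did. Of the other 15, Kif1a did, higher, at 0.0291, where 3.75% of tested genes did, and the adjusted p of these 7 was 0.725 or more. The pair differences of Kif23 were −0.67, −0.56 and −0.57 on the log2 scale, close to each other although its groups overlapped. Those of Kif20a were −0.92, −0.35 and −0.44, and those of Kif14 were −1.05, −0.10 and −0.090, nearly all in the first pair.

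Base composition was read beside these values. Over the 11 mitotic kinesins, the deviation of each library from the mean of the libraries was correlated with GC content. The Pearson correlations were −0.681, 0.446 and 0.630 in the knockout-labelled libraries, against −0.388, −0.0582 and 0.499 in the wildtype-labelled libraries. The mitotic kinesins had a median GC content of 46.5%, the other tested kinesins 51.6% and all tested genes 50%. With a smooth trend over GC content and gene length taken out of each library, the median difference of the mitotic kinesins was −0.70. All 11 had lower means, where 56.4% of genes did, all 11 were lower in every pair, where 21.9% did, and the groups did not overlap, lower, in 10 of 11, all but Kif15, where 10.0% of all genes with these values did. In that fit, Kif20b stood at −1.08, Kif11 at −0.85, Kif22 at −0.80 and Kif23 at −0.78, and no kinesin was called, with limma adjusted p of 0.222 or more in the version that also held the replicate number. The part of GC content in the deposited differences was not tested.

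Summed levels show the same genes as a share of the FPKM of the 37 kinesins of the symbol rule. Kifc1, Kifc2, Kifc3, Kifc5b and Cenpe fall outside that rule and are not in these sums. The 11 mitotic kinesins summed to 93.5, 68.7 and 75.7 FPKM in the knockout-labelled hearts, against 157, 99.5 and 114 FPKM in the wildtype-labelled hearts. The other 26 summed to 210, 173 and 181 FPKM in the knockout-labelled hearts, against 200, 189 and 191 FPKM in the wildtype-labelled hearts. Mitotic members held 30.8%, 28.5% and 29.5% of the FPKM of these 37 genes in the knockout-labelled hearts. In the wildtype-labelled hearts they held 44.0%, 34.5% and 37.4%. Each knockout-labelled share was below each wildtype-labelled share, with means of 29.6 ± 1.18% in knockout-labelled and 38.6 ± 4.86% in wildtype-labelled hearts (SD, n = 3 each) and a difference of −9.04 percentage points that ranged from −11.1 to −6.36 with any library left out. A share within a library does not depend on a single scaling factor of that library, but GC and length trends were not taken out of it. With members chosen in view of earlier results, the share is given without a test.

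**Figure D4:**
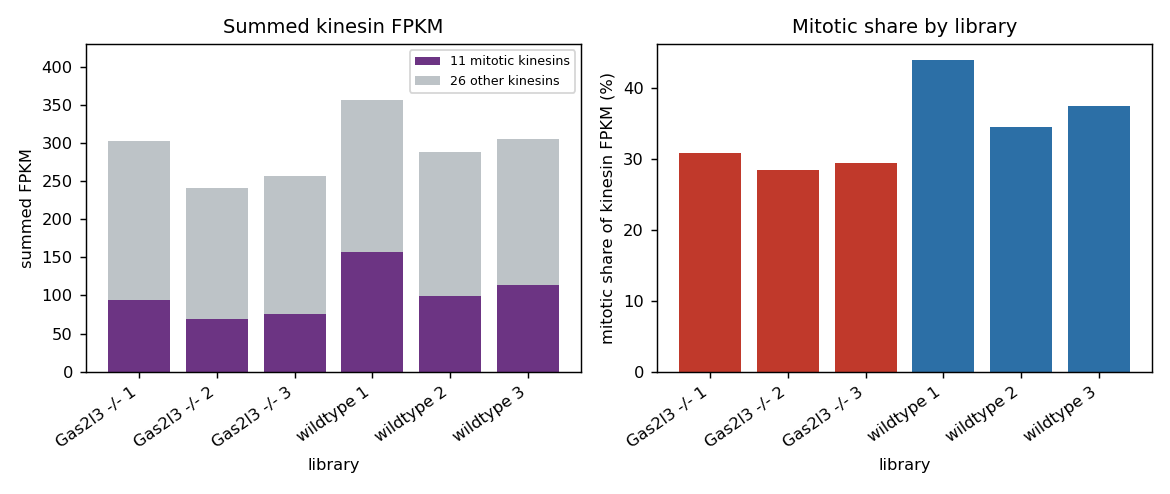
Left, summed FPKM of the 11 mitotic and the 26 other kinesins of the symbol rule in each library. Right, the mitotic share of their joint FPKM in percent. The knockout-labelled libraries hold 28.5% to 30.8% mitotic kinesin and the wildtype-labelled libraries 34.5% to 44.0%.

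Among kinesins of transport, the most abundant was Kif1c, a vesicle motor, with 60.7, 73.4 and 67.6 FPKM in the knockout-labelled hearts, against 52.3, 77.4 and 89.6 FPKM in the wildtype-labelled hearts. The groups were intermixed, with wildtype-labelled libraries at both ends, and the log2 difference was −0.089 (SE 0.30). Kif5b, the ubiquitous conventional heavy chain that moves mitochondria and vesicles, had 42.5, 18.5 and 21.1 FPKM in the knockout-labelled hearts, against 31.6, 29.9 and 18.6 FPKM in the wildtype-labelled hearts. Knockout-labelled libraries were at both ends of that range, and the difference was −0.028 (SE 0.37). Kif13a, an endosome motor, had 21.7, 19.9 and 22.9 FPKM in the knockout-labelled hearts, against 28.6, 21.8 and 19.5 FPKM in the wildtype-labelled hearts, and Kif1b, which carries mitochondria and vesicles, had 12.3, 8.20 and 11.8 FPKM in the knockout-labelled hearts, against 13.8, 7.88 and 9.56 FPKM in the wildtype-labelled hearts. Their differences were −0.10 (SE 0.25) for Kif13a and 0.063 (SE 0.29) for Kif1b, both with overlapping groups. Kif16b, which moves early endosomes, had 9.59, 5.94 and 8.06 FPKM in the knockout-labelled hearts, against 8.63, 8.83 and 5.52 FPKM in the wildtype-labelled hearts, a difference of 0.039 (SE 0.29). Kif13b, an endosome and vesicle motor, had 2.52, 1.70 and 2.18 FPKM in the knockout-labelled hearts, against 2.77, 1.48 and 2.15 FPKM in the wildtype-labelled hearts, a difference of 0.017 (SE 0.29). All these motors were within the spread of their libraries.

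Kif1a, which carries synaptic vesicle precursors in neurons, was the kinesin that differed most in the upward direction. It had 6.95, 3.91 and 5.46 FPKM in the knockout-labelled hearts, against 4.11, 2.41 and 3.84 FPKM in the wildtype-labelled hearts. Replicate 1 was highest in each group, the groups overlapped because wildtype-labelled replicate 1 exceeded knockout-labelled replicate 2, and each pair was higher in the knockout-labelled library, by 0.69, 0.60 and 0.46. The log2 difference was 0.58 (SE 0.30), with an unadjusted limma p of 0.087 and an adjusted p of 0.966, and it was 0.38 without wildtype-labelled replicate 2 and 0.78 without knockout-labelled replicate 2. The share of all tested genes that were higher in each of the 3 pairs was 16.6%. With GC and length trends removed the difference was 0.81, with a limma adjusted p of 0.486. The groups then no longer overlapped, where 5.55% of all genes with these values had groups apart, higher. Of 14 neuron and Schwann cell markers, 9 stayed under 1 FPKM in every library, and their summed level was 6.74 to 8.42 FPKM in the knockout-labelled hearts and 7.85 to 10.3 FPKM in the wildtype-labelled hearts. These ranges overlapped, and 2 of the 14 markers reached the level for testing, both with lower means. Dbh stood at −0.83 (SE 0.38) with groups apart, as in 4.74% of tested genes, lower. Stmn2 stood at −0.34 (SE 0.29) with overlapping groups. The part of nerve cells in the Kif1a values was not tested.

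Motors of the cilium came next. Kif3a and Kif3b form, with Kifap3, the kinesin-2 that drives intraflagellar transport. Kif3a had 7.92, 5.14 and 5.76 FPKM in the knockout-labelled hearts, against 10.03, 4.92 and 2.86 FPKM in the wildtype-labelled hearts, and Kif3b had 6.31, 6.38 and 6.39 FPKM in the knockout-labelled hearts, against 7.85, 5.27 and 3.43 FPKM in the wildtype-labelled hearts. Both spanned a wider range in the wildtype-labelled hearts, from a high replicate 1 to a low replicate 3, and their differences were 0.21 (SE 0.41) for Kif3a and 0.26 (SE 0.30) for Kif3b. Kif3c, another partner of Kif3a, had 2.03, 2.79 and 2.51 FPKM in the knockout-labelled hearts, against 1.67, 2.38 and 2.61 FPKM in the wildtype-labelled hearts, a difference of 0.12 (SE 0.27), and its exons overlap those of 1110002L01Rik on the other strand by 2617 bases. Kif7, which organises the cilium tip for Hedgehog signalling, had 1.71, 1.89 and 1.79 FPKM in the knockout-labelled hearts, against 1.41, 1.48 and 1.81 FPKM in the wildtype-labelled hearts. Its difference was 0.15 (SE 0.26) with overlapping groups, and 0.40 with groups apart once GC and length trends were removed. The limma adjusted p of Kif7 was 0.709 in that fit, where 5.55% of all genes had groups apart, higher.

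The remaining tested members control microtubules or are not motile. Kif2a, the relative of Kif2c that also acts in cells that do not divide, had 10.2, 8.0 and 8.06 FPKM in the knockout-labelled hearts, against 10.5, 9.92 and 8.79 FPKM in the wildtype-labelled hearts. It was lower in each pair, by small amounts, with a difference of −0.15 (SE 0.23), overlapping groups, and exons that overlap those of Dimt1 on the other strand by 1229 bases. Kif21a, which restrains microtubule growth, had 3.55, 2.91 and 3.30 FPKM in the knockout-labelled hearts, against 3.64, 3.08 and 1.88 FPKM in the wildtype-labelled hearts, a difference of 0.19 (SE 0.29). Kif26a had 5.63, 6.41 and 5.83 FPKM in the knockout-labelled hearts, against 5.89, 5.43 and 11.2 FPKM in the wildtype-labelled hearts, with wildtype-labelled replicate 3 far above the rest, and its difference of −0.24 (SE 0.30) was 0.067 without that library. Kif26b had 13.4, 5.03 and 5.09 FPKM in the knockout-labelled hearts, against 13.4, 5.07 and 6.79 FPKM in the wildtype-labelled hearts. Replicate 1 was far above the others in each group, and the difference was −0.13 (SE 0.46).

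**Figure D5:**
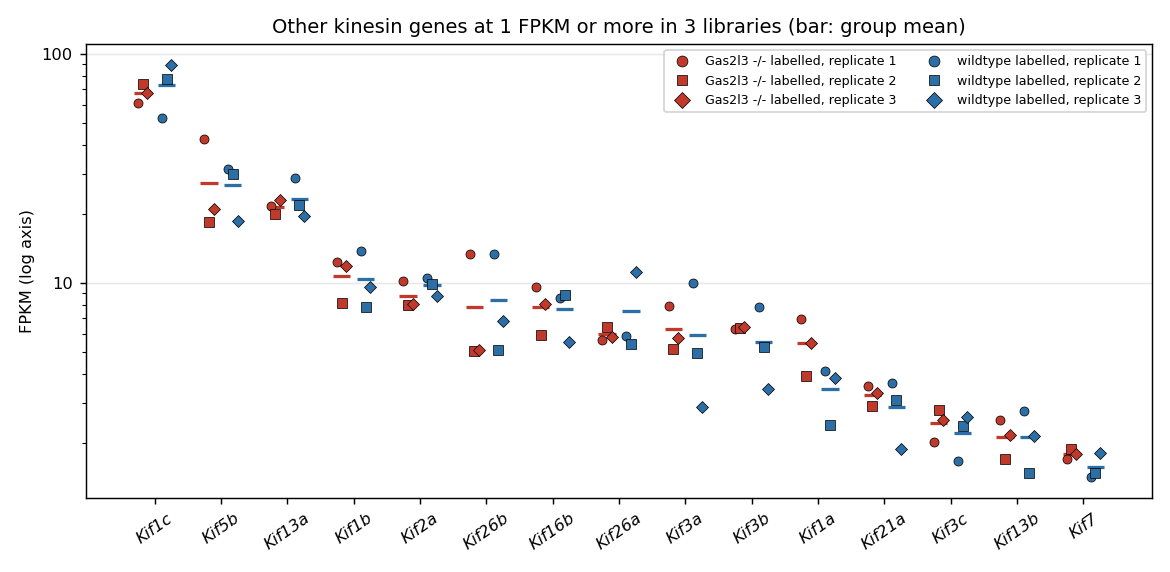
FPKM on a log axis of the 15 other kinesins with at least 1 FPKM in 3 or more libraries, with symbols for replicate numbers and bars for group means. Values of Gas2l3 -/- and wildtype labelled hearts overlap for each of the 15 genes, from Kif1c at 52.3 to 89.6 FPKM down to Kif7 at 1.41 to 1.89 FPKM.

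The other 11 kinesins of the rest were too low to be tested. Kif2b and Kif12 were listed at 0 in every library. Kif24, which acts at the centriole, ranged from 0.422 to 0.820 FPKM, Kif21b from 0.361 to 0.857 FPKM and Kif6 from 0.411 to 1.06 FPKM. Kif27, Kif9, Kif17 and Kif19a, most of them known from cilia, reached at most 0.598, 0.230, 0.296 and 0.234 FPKM. Kif5c and Kif5a are the neuronal conventional heavy chains. Kif5c had 0.181, 0.299 and 0.254 FPKM in the knockout-labelled hearts, against 0.117, 0.115 and 0.0720 FPKM in the wildtype-labelled hearts, on 8, 11 and 12 recovered reads in the knockout-labelled libraries, against 3, 6 and 3 in the wildtype-labelled libraries. Kif5a had 0.155, 0.159 and 0.145 FPKM in the knockout-labelled hearts, against 0.0762, 0.0939 and 0.0234 FPKM in the wildtype-labelled hearts, on 7, 6 and 7 recovered reads in the knockout-labelled libraries, against 2, 5 and 1 in the wildtype-labelled libraries. For both, all knockout-labelled libraries were above all wildtype-labelled ones, on at most 12 reads in any library. Kif19a lay the other way, with 0.0452, 0.0542 and 0.00 FPKM in the knockout-labelled hearts, against 0.234, 0.0768 and 0.0958 FPKM in the wildtype-labelled hearts, on at most 3 reads in any library. Of the 17720 genes in a fit with no filter on low values, 5.42% had groups that did not overlap, higher, and 3.98% lower. In that limma fit, the differences were 0.31 (SE 0.12) for Kif5c, −0.25 (SE 0.13) for Kif19a and 0.21 (SE 0.10) for Kif5a, with an adjusted p of 0.944 for each.

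In 3 families there were both a mitotic member and a tested other member, and a ratio within a library sets them beside each other. In the kinesin-4 family, the log2 ratio of Kif4 to Kif21a was 1.34, 1.08 and 1.12 in the knockout-labelled hearts, against 2.16, 1.74 and 2.26 in the wildtype-labelled hearts. These ratios did not overlap, with a difference of −0.88 and an exact two-sided permutation p of 0.1, the smallest that 3 libraries against 3 allow, or 0.3 after Benjamini-Hochberg adjustment over the 3 ratios. In the kinesin-13 family, the ratio of Kif2c to Kif2a differed by −0.34 (exact permutation p = 0.2, adjusted 0.3), and in the kinesin-3 family that of Kif14 to Kif1c by −0.42 (exact permutation p = 0.9, adjusted 0.9). Ratios of those families overlapped between the groups. A test that cannot go below 0.1 cannot call any ratio, and it left the replicate numbers aside. The members were also chosen with earlier results of these data known, so no conclusion is drawn from these p-values.

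Kinesins whose symbols fall outside the rule were read in the same fit. Kifc1, a minus-end motor that focuses spindle poles, had 10.3, 8.97 and 11.5 FPKM in the knockout-labelled hearts, against 16.6, 12.98 and 24.9 FPKM in the wildtype-labelled hearts. The groups did not overlap, and the log2 difference was −0.75 (SE 0.29). Cenpe, the kinetochore kinesin that brings chromosomes to the equator, had 2.30, 1.72 and 2.01 FPKM in the knockout-labelled hearts, against 2.36, 3.68 and 4.95 FPKM in the wildtype-labelled hearts. Its groups also did not overlap, and the log2 difference was −0.69 (SE 0.30). Kifc2 and Kifc3, motors without a known central part in division, stood at −0.094 (SE 0.27) for Kifc2 and 0.056 (SE 0.40) for Kifc3. Kifc5b stood at −0.51 (SE 0.30), and since it is nearly identical to Kifc1, how reads were divided between them is uncertain.

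Genes whose products work with mitotic kinesins were read as a list. Of 21 tested partners, 18 had lower means, with a median of −0.63, where 51.0% of all tested genes had lower means. Groups did not overlap, lower, in 9 of the 21, against 4.74% of all tested genes. Racgap1, the centralspindlin partner of Kif23, had 24.1, 20.2 and 28.5 FPKM in the knockout-labelled hearts, against 43.4, 37.5 and 48.4 FPKM in the wildtype-labelled hearts, a difference of −0.82 (SE 0.26). Aurka, a spindle kinase, had 17.02, 17.9 and 19.00 FPKM in the knockout-labelled hearts, against 32.7, 29.8 and 37.01 FPKM in the wildtype-labelled hearts, a difference of −0.86 (SE 0.24). In both, every knockout-labelled library was below every wildtype-labelled one. Birc5 and Cdca8, subunits of the chromosomal passenger complex that Kif20a carries, stood at −0.83 (SE 0.24) for Birc5 and −0.84 (SE 0.27) for Cdca8. No partner passed the test, with an adjusted p of 0.966 for these 4 genes in limma. Of the general proliferation genes, 12 of 14 had lower means, with a median of −0.50, and 4 had groups apart in the deposited scaling, namely Rrm2 at −0.85 (SE 0.25), Cdc20 at −0.98 (SE 0.31), Ccnb2 at −0.73 (SE 0.24) and Mcm2 at −0.55 (SE 0.28), against the same 4.74% of all tested genes. Under the common FPKM total, 17 of the 21 partners and 10 of the 14 proliferation genes had lower means. The summed level of the proliferation genes was 429, 554 and 441 FPKM in the knockout-labelled hearts, against 667, 685 and 567 FPKM in the wildtype-labelled hearts. Knockout-labelled replicate 2 had the highest of the knockout-labelled sums, although its mitotic kinesin sum, 68.7 FPKM, was the lowest. Mki67 had 9.84, 5.98 and 11.2 FPKM in the knockout-labelled hearts, against 9.98, 8.84 and 22.4 FPKM in the wildtype-labelled hearts, and its groups overlapped. The part of proliferation in the mitotic kinesin values was not tested.

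Lists around transport followed. Of the light chains and other subunits of transport kinesins, 5 of 7 listed were tested and all 5 had lower means, with a median of −0.15 and Klc4 the farthest at −0.41 (SE 0.29). Adaptors that tie cargo to kinesins had 7 lower means of 13 tested and a median of −0.096, with Rhot2, of mitochondria, at −0.46 (SE 0.34) and Plekhm2, of lysosomes, at −0.44 (SE 0.32). Dynein and dynactin, the motor that runs the other way, had 8 lower and 14 higher means of 22 tested and a median of 0.066, with Dynlt3 at 0.76 (SE 0.49) and Dctn1 at −0.39 (SE 0.32). Genes of intraflagellar transport, the process that Kif3a and Kif3b drive, had 12 lower means of 23 tested and a median of −0.032, with Ift46 at −0.37 (SE 0.22) and Ift52 at 0.38 (SE 0.25). Groups lay apart, lower, in 3 of these 23, Ift46 among them, and higher in 0. Of the 22 dynein and dynactin genes, 1 lay apart, higher, and 0 lower. Among all tested genes, 4.74% lay apart, lower, and 5.02% higher. The groups overlapped in all tested subunits and adaptors. None of these genes passed the test. Under the common FPKM total, the medians of the subunits, adaptors and intraflagellar genes turned positive, at 0.020, 0.075 and 0.14, with the median of all genes at 0.15.

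Cell type markers were read in the same libraries, since division in the heart is shared among several cell types. All 16 cardiomyocyte markers were tested and present, with 15 lower means and a median of −0.39. They summed to 43830 to 55550 FPKM in the knockout-labelled hearts and 48200 to 94030 FPKM in the wildtype-labelled hearts. The groups overlapped in all 16, and 0 had an unadjusted limma p under 0.05. Tnni1 had 1894, 2350 and 2058 FPKM in the knockout-labelled hearts, against 2312, 3331 and 8390 FPKM in the wildtype-labelled hearts. Nkx2-5 was likewise far highest in wildtype-labelled replicate 3, at 489 FPKM, while Myl7 was highest in wildtype-labelled replicate 2. Of 10 fibroblast markers, 8 had higher means, with a median of 0.36, and they summed to 1301 to 1581 FPKM in the knockout-labelled hearts and 905 to 1866 FPKM in the wildtype-labelled hearts. Endothelial markers had a median of 0.052 over 10 genes and smooth muscle and pericyte markers 0.071 over 8. Macrophage markers had a median of 0.12 over 9, of which 7 had higher means. Groups lay apart, higher, in 3 of the 9 macrophage, 2 of the 10 fibroblast and 1 of the 10 endothelial markers. The share of all tested genes was 5.02%. Apart, lower, were 0 in each of these lists. The macrophage markers were Lyz2 at 1.43 (SE 0.43), Fcgr1 at 0.92 (SE 0.29, on 5 to 37 reads) and Adgre1 at 0.50 (SE 0.28). The others were Lum at 0.94 (SE 0.35), Tcf21 at 0.68 (SE 0.38) and Emcn at 1.08 (SE 0.30). Red cell markers had higher means in all 4 that were tested, and Hba-a1, Hba-a2, Hbb-bs and Hbb-bt were listed at 0 in every library. Of 10 skeletal muscle markers 5 were tested, 4 of them with lower means and a median of −1.01, they summed to 1277 to 1364 FPKM in the knockout-labelled hearts and 1373 to 3624 FPKM in the wildtype-labelled hearts, and Myod1, which defines that lineage, was listed at 0. Most of these sums was Ckm alone, with 1286, 1185 and 1269 FPKM in the knockout-labelled hearts, against 1304, 1574 and 3519 FPKM in the wildtype-labelled hearts. Mylpf, Tnni2 and Tnnt3 were at 37.7 FPKM or less in every library. Of 10 markers of cells with many motile cilia, 9 were under 1 FPKM in every library. Under the common FPKM total, 12 of 16 cardiomyocyte markers had lower means. The part of cell make-up in the kinesin values was not tested.

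In the authors' deposited table of the same comparison, all 11 mitotic kinesins also had negative fold changes, −0.74 to −0.22 with a median of −0.48 on the log2 scale. The authors' deposited table gave Kif20b −0.74 with a standard error of 0.27 and an adjusted p of 0.752 from DESeq2, and Kif22 −0.59 with a standard error of 0.24 and an adjusted p of 0.989. These were the 2 mitotic kinesins with an unadjusted p under 0.05 there, where 1.60% of genes with a p-value were lower at that level. The other 24 kinesins with a p-value in the authors' deposited table had 9 negative and 15 positive fold changes, with a median of 0.032 and Kif1a at 0.49. No kinesin was among the 9 genes, 0.0735% of 12243, that the authors' deposited table has at an adjusted p under 0.05.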

How the data were processed

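Poly(A) RNA of embryonic hearts, in 6 libraries, went through the NEBNext Ultra kit with 13 cycles of PCR, per the labels' protocols. FastQC, DESeq2 and mm10 are named in the submitters' processing notes without versions. For the aligner, the counter and any use of strand, the sources used here give nothing. The authors deposited FPKM for each gene in each library. They also deposited their own comparison, with a mean count, a log2 fold change, its standard error and a p-value per gene, per the file headers. The FPKM columns sum to 429622 to 788996, and their ratios to the reads follow size factors, not totals.

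Whole reads were recovered from the FPKM and the mean counts: all 94235 values above 0 came out whole (100%, tolerance 0.01). They served for depth and for a voom fit, and they cover counting error only, since PCR copies were not marked. Groups and replicate numbers came from the labels. No 2 libraries held identical values. Genes with at least 1 FPKM in 3 or more libraries, 12121 in all, were tested by limma 3.58.1 in R 4.3.3 on log2(FPKM + 0.5) with an eBayes trend, two-sided, adjusted by Benjamini-Hochberg over all of them and called under 0.05. That scale understates changes of low genes. The script was checked on simulated data.

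Same-numbered libraries correlated in their deviations (0.472, 0.443 and 0.186, each over 0.1), so the numbers were taken to pair the samples, although the labels do not say what a number marks. The pairing thus comes from these same data, and results by pair or by block rest on it. The block changed no kinesin call. GC and length trends were removed by loess (span 0.3) for the 11709 tested genes matched to GRCm38 annotation. The 16 alternatives were pseudocounts of 0.1 and 1, other filters, scalings and normalizations, the block, the trends, and each library left out.

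Members, lists and rules were chosen with earlier results of these data known, so no p is given for a list. All 37 kinesins are accounted for, the tested ones with every value, and of each list up to 4 tested genes with the smallest p could be named. Mki67 and all 5 listed kinesins outside the symbol rule were read as well. Promoter windows came from RefSeq (GRCm38.p6).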

Additional observations from a re-analysis of the deposited data

How the results depend on the processing

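Every mitotic kinesin tested kept a lower mean under each of the 16 alternatives, except Kif15 without wildtype-labelled replicate 1. With a mean of at least 5 FPKM, 7 were tested and 7 were lower. No kinesin was called under any alternative. Of 172 single mitotic values 1 turned sign, and of 235 values of the other kinesins 36 did. The count of mitotic kinesins whose groups did not overlap was 1 under the common FPKM total (3.20% of all genes), 4 under voom (4.83%), 6 under quantile normalization (5.59%) and 10 with GC and length trends removed, with or without the replicate block (10.0%). It was 5 to 10 with a library left out, where 6.78% to 17.3% of all genes had such groups, 10 being without knockout-labelled replicate 1. The cause was not tested. Genes of the whole table at an unadjusted p under 0.05 numbered 692 with no filter and 235 at a mean of 5 FPKM, since other genes were tested, 729 with the replicate block, 929 with trends removed, 1312 with both, and 185 to 1467 with a library left out. Called genes numbered 2 with trends removed and 4 with the replicate block as well. Lower means among the other kinesins numbered 10 with no filter and 1 under the common total. Under that scaling, which moved the median of all genes to 0.15, Kif26b stood at 0.034, Kif1c at 0.089, Kif13a at 0.075, Kif2a at 0.018 and Kif5b at 0.15. Under quantile normalization Kif1c stood at 0.061, Kif13b at −0.071 and Kif5b at 0.025. With trends removed, with or without the replicate block, Kif1c stood at 0.085, Kif26a at 0.086 and Kif16b at −0.12. With a library left out, ranges were −0.88 to 0.047 for Gas2l3, −0.60 to 0.12 for Kif15, −0.21 to 0.056 for Kif13a, −0.17 to 0.19 for Kif13b, −0.17 to 0.22 for Kif16b, −0.11 to 0.27 for Kif1b, −0.31 to 0.074 for Kif1c, −0.040 to 0.36 for Kif21a, −0.42 to 0.067 for Kif26a, −0.57 to 0.25 for Kif26b, −0.18 to 0.65 for Kif3a, −0.016 to 0.53 for Kif3b, −0.031 to 0.23 for Kif3c and −0.39 to 0.20 for Kif5b. Depth limits Kif5a, Kif5c, Kif9, Kif17, Kif19a and Kif27, at 12 reads or fewer in each library, and among the mitotic kinesins Kif18a, at 18 to 39 reads.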
